A study of Mus musculus with 8 samples.

Results

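*Tal2*, *Tal1*, *Gata2*, *Gata3*, *Helt* and *Sox14* are 6 transcription factor genes expressed in progenitors or precursors of GABAergic neurons of the embryonic midbrain. They are called selector genes here, which does not mean that each of them directs this fate. They were matched by symbol to the gene identifiers of the count tables and are 6 of 54752 listed genes, and all 6 passed the filter on low counts that left 17865 genes. The genes were selected on the comparison of stressed with control brains in these same libraries, where *Tal2* stood out. Their values in that comparison are therefore a description, and nothing is read from their calls in it.

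The RNA of 8 wild type C57BL/6 mouse brains (C57BL/6Slac by the study's methods) collected at E15.5 was sequenced with 1 library per brain. In the stress group the pregnant dam went through chronic unpredictable mild stress (CUMS), a changing schedule of tube restraint, wet bedding, predator odour and overnight light, whereas control dams were left in their home cages. Each group held 4 brains, with the control females F36 and F37, the control males M30 and M31, the stressed females F34 and F35 and the stressed males M28 and M29. By the study's library list the 4 control brains were littermates and the 4 stressed brains were littermates of 1 other litter, so the effects of litter and of condition cannot be told apart, and p-values measure the spread among littermates. The study describes the tissue as whole brain with forebrain, midbrain and hindbrain, the same list names it by the code half_whole_brain without further words, and no batch is given for these libraries, which hold 25320109 to 29105710 counts each.

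In the embryonic midbrain GABAergic neurons, which release the inhibitory transmitter GABA, arise from progenitors that express the repressor *Helt*. When these progenitors leave the cell cycle they switch on *Gata2*, and the precursors then express *Tal2*, *Tal1* and *Gata3*, whose products act in shared complexes on GATA sites and E-boxes in DNA. *Tal1*, *Gata2* and *Gata3* also serve in blood and vessel cells and in neurons of the hindbrain and spinal cord, and *Sox14* marks GABAergic precursors of the midbrain, pretectum and thalamus.

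By the coordinates of the count tables on mm10, *Tal2* occupies chromosome 4 from 53779705 to 53788712 on its plus strand, with 2971 exon bases in 2 blocks of 69 and 2902 bases. *Tal1* is on the same strand and chromosome, from 115056426 to 115071755, in 7 exon blocks. *Gata2* spans 88193891 to 88207032 on the plus strand of chromosome 6, also in 7 blocks. The others are on minus strands, *Gata3* from 9857078 to 9890034 on chromosome 2 in 10 blocks, *Helt* from 46292039 to 46294671 on chromosome 8 in 4 blocks, and *Sox14* from 99874106 to 99876170 on chromosome 9 in 1 block. Strand was not used in the counting, and 5.83% of the exon bases of *Gata3* are shared with the genes *9230102O04Rik* and *Gm13256*. The study states no option that counts a read for more than 1 gene, so reads over these bases can be missing from the *Gata3* counts. No other selector gene shares exon bases with a listed gene.

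The 250 bases before the transcription start of 4 of these genes are shown because the factors of the set bind such sites. *Tal2* and *Helt* had the largest Log2FC values, and *Tal1* and *Sox14* hold a GATA motif there. The sequences are from RefSeq (GRCm38.p6, the mm10 assembly) and read 5′ to 3′ on the strand of the gene, and capitals mark GATA motifs (AGATAA and its variant AGATAG, or TGATAA and its variant TGATAG, on either strand) and E-boxes (CANNTG, the same on both strands). They are chr4:53779451-53779700 on the plus strand for *Tal2*, chr4:115056176-115056425 on the plus strand for *Tal1*, chr8:46294672-46294921 on the minus strand for *Helt* and chr9:99876171-99876420 on the minus strand for *Sox14*.
Tal2: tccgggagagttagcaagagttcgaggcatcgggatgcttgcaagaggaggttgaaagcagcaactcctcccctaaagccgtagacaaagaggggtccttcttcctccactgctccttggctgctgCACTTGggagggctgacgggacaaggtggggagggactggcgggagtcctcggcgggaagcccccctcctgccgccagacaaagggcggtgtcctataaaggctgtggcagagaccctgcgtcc
Tal1: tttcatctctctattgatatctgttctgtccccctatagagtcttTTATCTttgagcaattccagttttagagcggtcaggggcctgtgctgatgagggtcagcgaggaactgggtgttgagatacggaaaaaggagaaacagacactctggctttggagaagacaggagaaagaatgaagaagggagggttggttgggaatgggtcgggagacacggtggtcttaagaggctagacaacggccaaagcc
Helt: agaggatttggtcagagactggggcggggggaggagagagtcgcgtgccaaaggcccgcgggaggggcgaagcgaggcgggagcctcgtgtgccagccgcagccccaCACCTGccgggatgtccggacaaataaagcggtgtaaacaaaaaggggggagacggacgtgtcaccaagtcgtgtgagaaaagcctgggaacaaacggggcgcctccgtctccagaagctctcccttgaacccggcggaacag
Sox14: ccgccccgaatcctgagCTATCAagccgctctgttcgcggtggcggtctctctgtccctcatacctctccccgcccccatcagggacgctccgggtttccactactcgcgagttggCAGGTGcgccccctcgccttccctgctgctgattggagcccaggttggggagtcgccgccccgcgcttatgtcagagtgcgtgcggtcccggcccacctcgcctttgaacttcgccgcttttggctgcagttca
A motif's position is the distance of its first base, on the strand of the gene, from the first transcribed base, with negative numbers before it. The RefSeq table holds 8 windows of 300 bases for the 6 genes, each with 250 bases before the start and 50 after it, and 2 of them each belong to *Tal1* and *Gata2*. *Tal2* had no GATA motif and 1 E-box, at -124. *Tal1* had a GATA motif at -205 and the E-box CAGATG, read on the opposite strand, at 10 in its first window, and neither motif in the other. In *Sox14* there was a GATA motif at -233 with E-boxes at -134 and 22, and *Helt* had 1 E-box at -143. *Gata3* had a GATA motif at 36 and the E-box CAGCTG across its start at -1, and *Gata2* had CAGCTG at 17 in 1 window and no motif in the other. Of all 32851 windows of this length, 29.8% held a GATA motif, 72.3% an E-box, 17.2% CAGATG and 16.3% CAGCTG, so such matches are common and are given as letters found, not as bound sites.

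Levels between genes were compared per length, as RPKM (the CPM value divided by the exon length in kilobases), in the 4 control brains. *Sox14* was at 6.85 ± 0.40 RPKM (SD, n = 4) and *Tal1* at 6.57 ± 0.33, and the ranges of these 2 genes overlapped. *Gata3* followed at 5.01 ± 0.43 RPKM, *Tal2* at 2.44 ± 0.12, *Gata2* at 1.59 ± 0.10 and *Helt*, the progenitor gene, at 0.67 ± 0.05. Between these neighbours in the order, and between *Tal1* and *Gata3*, no range overlapped with the next. In CPM, the count scaled to the TMM-normalized library total, 37.3% of the tested genes had a lower control mean than *Tal2*, against 59.5% for *Tal1* and 18.5% for *Helt*.

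In the comparison of stress with control, all 6 genes had a higher mean CPM in the stressed brains, and *Tal2* differed most, from 7.24 ± 0.35 CPM (SD, n = 4) to 12.2 ± 1.71. *Helt* came next, from 1.34 ± 0.10 to 1.90 ± 0.25 CPM. The means of *Tal1*, *Gata3*, *Sox14* and *Gata2* differed by a Log2FC of at most 0.19. In these bulk libraries, more cells of a type and more RNA per cell cannot be told apart.

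*Helt*, the basic helix-loop-helix repressor of the progenitors, is the lowest of the 6 and had 34 and 42 counts in the control females F36 and F37 and 36 and 38 in the control males M30 and M31. This corresponds to 1.24, 1.48, 1.31 and 1.34 CPM. The stressed females F34 and F35 had 56 and 39 counts, or 2.03 and 1.54 CPM, and the stressed males M28 and M29 had 55 and 61 counts, or 1.92 and 2.11 CPM. Every stressed brain lay above every control brain, although F35, at 1.54 CPM, was close to the highest control at 1.48. The Log2FC was 0.50 with a standard error (SE) of 0.16, the widest error of the set. With 1 brain left out it ranged from 0.45 without stressed F34 to 0.59 without stressed F35.

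*Gata2*, the GATA factor that is switched on as progenitors leave the cell cycle, had 225 and 232 counts in the control females and 257 and 244 in the control males, which is 8.19, 8.18, 9.32 and 8.58 CPM. In the stressed females it had 262 and 213 counts, or 9.49 and 8.41 CPM, and in the stressed males 260 and 284 counts, or 9.06 and 9.81 CPM. The groups overlapped, with 2 of 4 stressed brains above all controls, and the Log2FC was 0.10 (SE 0.07), the smallest of the set. It ranged from 0.06 without stressed F34 to 0.13 without control M30 or stressed M28.

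*Tal2*, a basic helix-loop-helix factor of the early precursors, had 200 and 194 counts in the control females F36 and F37 and 212 and 203 in the control males M30 and M31, which is 7.28, 6.84, 7.69 and 7.14 CPM. The stressed females F34 and F35 had 328 and 312 counts, or 11.9 and 12.3 CPM. The stressed males M28 and M29 had 292 and 415 counts, or 10.2 and 14.3 CPM. The lowest stressed brain, M28, lay above the highest control, M30, by a wide gap, and the spread among stressed brains was larger than among controls. The Log2FC was 0.75 (SE 0.09), a fold of 1.68. It was 0.65 without stressed M29 and 0.85 without stressed M28, and the other 6 libraries moved it less.

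*Tal1*, the close relative of *Tal2* that also acts in blood and vessel cells, had 778 and 790 counts in the control females and 852 and 798 in the control males, or 28.32, 27.85, 30.91 and 28.05 CPM. The stressed females had 868 and 788 counts, or 31.43 and 31.13 CPM, and the stressed males 1004 and 899 counts, or 34.99 and 31.06 CPM. The groups did not overlap, but control M30 at 30.91 CPM was just under the stressed M29 at 31.06. The Log2FC was 0.16 (SE 0.05), from 0.12 without stressed M28 to 0.19 without stressed M29.

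*Gata3*, which follows *Gata2* in the precursors, had 534 and 556 counts in the control females and 616 and 520 in the control males, or 19.4, 19.6, 22.3 and 18.3 CPM. The stressed females had 648 and 545 counts, or 23.5 and 21.5 CPM, and the stressed males 637 and 680 counts, or 22.2 and 23.5 CPM. Control M30 lay within the range of the stressed brains, so 2 of 4 stressed brains were above all controls. The Log2FC was 0.19 (SE 0.06), from 0.13 without control M31 to 0.25 without control M30.

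*Sox14*, an SRY-box factor of GABAergic precursors, had 374 and 381 counts in the control females and 421 and 405 in the control males, or 13.6, 13.4, 15.3 and 14.2 CPM. The stressed females had 440 and 347 counts, or 15.9 and 13.7 CPM, and the stressed males 465 and 543 counts, or 16.2 and 18.8 CPM. F35 lay among the controls and the other 3 stressed brains above all of them. The Log2FC was 0.19 (SE 0.06), from 0.14 without stressed M29 to 0.24 without stressed F35.

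**Figure D1:**
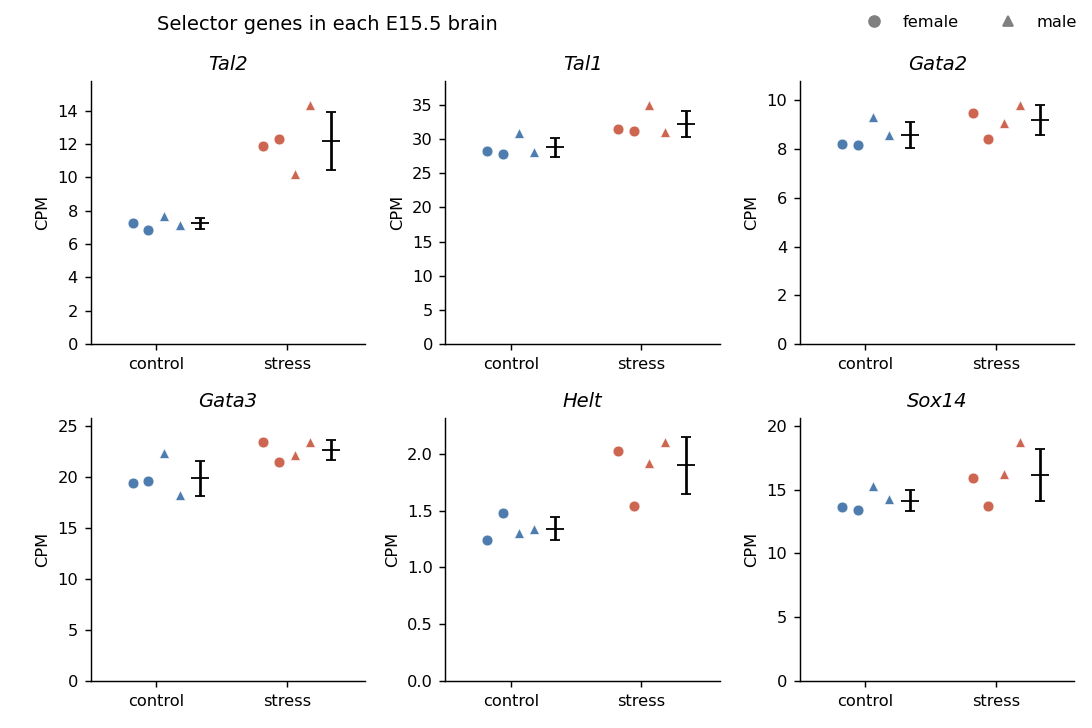
Expression of the 6 selector genes in CPM (vertical axes, each from 0) in the 4 control brains (blue) and the 4 stressed brains (red), with circles for females and triangles for males. Black bars give the mean and SD of 4 brains. For *Tal2* the stressed brains lie between 10.2 and 14.3 CPM and the controls between 6.84 and 7.69, whereas for *Gata2*, *Gata3* and *Sox14* the groups overlap.

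By the quasi-likelihood test of edgeR over all genes, 5 of the 6 genes were past an adjusted p of 0.05 in the higher direction, all but *Gata2*, where 6.49% of all genes tested were. Because this contrast chose the genes, nothing is read from that count. By DESeq2 it was 1 of 6, *Tal2*. It was also 1 without control M31 or without stressed F34, 2 without the sex covariate or without control F36, control F37 or stressed M29, and 3 without control M30 or stressed M28. *Tal2* was among the genes past the threshold in each of these fits, and nothing is read from these counts either. The 3 genes whose groups did not overlap, *Tal2*, *Tal1* and *Helt*, stand beside 8.20% of all genes tested with every stressed brain above every control brain.

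**Figure D2:**
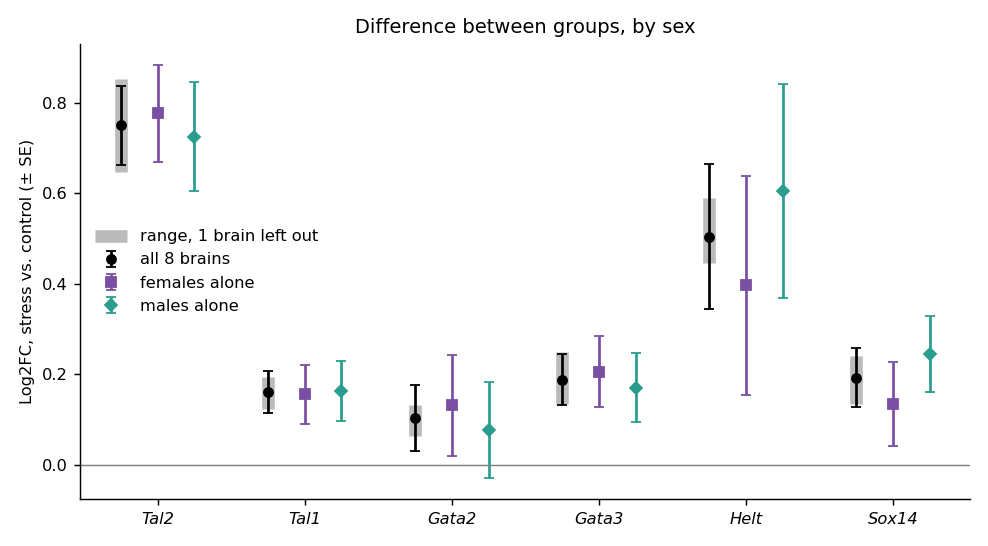
Log2FC of stress vs. control with its SE (vertical axis) for each selector gene, fitted on all 8 brains (black circles), on the 4 female brains alone (purple squares) and on the 4 male brains alone (green diamonds). Gray bars give the range when 1 brain is left out, from 0.65 to 0.85 for *Tal2*, and all points lie above 0.

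The difference between stressed and control brains was also fitted within each sex, 2 brains against 2. For *Tal2* it was a Log2FC of 0.78 (SE 0.11) in females and 0.73 (SE 0.12) in males. *Helt* had 0.40 (SE 0.24) in females and 0.61 (SE 0.24) in males, and *Sox14* had 0.13 (SE 0.09) and 0.24 (SE 0.08). In *Tal1* it was 0.16 in both sexes, in *Gata3* 0.21 in females and 0.17 in males, and in *Gata2* 0.13 and 0.08. The sex by stress interaction asks whether such a difference depends on sex and did not choose the genes. By edgeR's quasi-likelihood test none of the 6 genes was called, with adjusted p-values from 0.926 for *Sox14* to 0.994 for *Tal1*, where 0.00560% of all genes tested were. The unadjusted p was under 0.05 for 0 of the 6, and DESeq2 called 0. For *Tal2* the interaction was 0.05 on the log2 scale with an SE of 0.18, so differences between the sexes of that size were not detectable here.

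Sex itself is balanced over the litters and also did not choose the genes. All 6 had a lower fitted level in females than in males, but no member was called by edgeR's quasi-likelihood test, in which 0.0896% of all genes tested differed between the sexes in either direction. *Sox14* had the largest difference, with 13.5 CPM in control females and 14.8 in control males and with 14.8 in stressed females and 17.5 in stressed males. Its log2 difference, female minus male, was -0.18 (SE 0.06), with an adjusted p of 0.736 by edgeR. It was the only one of the 6 with an unadjusted p under 0.05, and DESeq2 called 0 of 6. In *Tal2* the log2 difference was -0.04 (SE 0.09, edgeR adjusted p = 0.966) and in *Tal1* -0.07 (SE 0.05, edgeR adjusted p = 0.882).

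Within each brain, *Tal2* was set against the other selector genes, as a ratio of CPM values that does not depend on the scaling of libraries. Against *Tal1* the ratio was 0.257, 0.246, 0.249 and 0.254 in control F36, F37, M30 and M31, and 0.378, 0.396, 0.291 and 0.462 in stressed F34, F35, M28 and M29. Against *Gata2* it ran from 0.825 to 0.889 in controls and from 1.12 to 1.46 in stressed brains, so *Tal2* had fewer counts than *Gata2* in every control brain and more in every stressed brain. Ratios to *Gata3* (0.344 to 0.390 against 0.458 to 0.610) and to *Sox14* (0.501 to 0.535 against 0.628 to 0.899) did not overlap either. The ratio to *Helt* did overlap, at 4.62 to 5.89 in controls and 5.31 to 8.0 in stressed brains. These ratios use the contrast that chose the genes and were not tested.

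**Figure D3:**
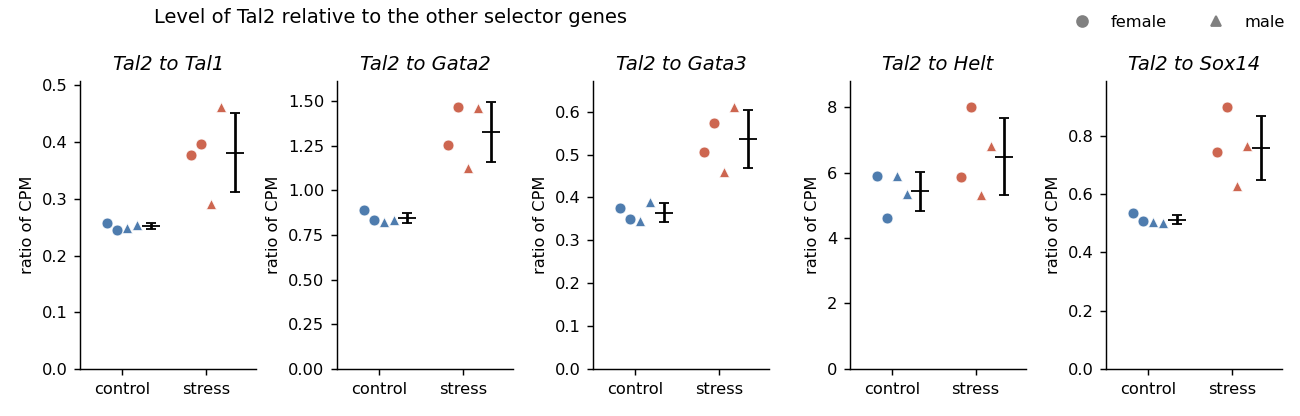
Ratio of the CPM of *Tal2* to that of each other selector gene (vertical axes, each from 0) in every brain, with controls in blue, stressed brains in red, circles for females, triangles for males and black bars for the mean and SD of 4 brains. The groups are separate for *Tal1*, *Gata2*, *Gata3* and *Sox14*, and overlap for *Helt*.

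Genes near *Tal2* were looked at because reads that run past a neighbour could be counted in it. *Fsd1l*, which lies before *Tal2*, had a Log2FC of -0.02 (edgeR adjusted p = 0.733). On the other side *Tmem38b*, an intracellular cation channel gene that starts 37.3 kb after *Tal2*, had a Log2FC of 0.07 (edgeR adjusted p = 0.601). The next tested gene, *Zfp462*, a zinc finger gene 1156 kb away, was called higher in the stressed brains with a Log2FC of 0.13 (SE 0.03, edgeR adjusted p = 0.00282).

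Whether other genes of the same region moved was described with a list of midbrain and isthmus patterning genes, 20 of which were tested. Of these, 3 were called higher and 0 lower, with *Tfap2b* (Log2FC 0.21), a transcription factor of the tectum, *Otx2* (0.19), which specifies the midbrain, and *Pax5* (0.24), a gene of the midbrain and isthmus. Over all genes tested, 6.49% were called higher and 7.27% lower, and these shares also apply to the lists below. The median Log2FC of the list was 0.07, beside 0.0015 over all genes tested. On the scale of log2 CPM minus the mean of this list, *Tal2* was at -0.42 ± 0.06 in controls and 0.30 ± 0.15 in stressed brains (SD, n = 4), a difference of 0.71, and the groups did not overlap. On that scale the difference was 0.45 for *Helt*, whose groups then overlapped, 0.17 for *Gata3*, 0.16 for *Sox14*, 0.14 for *Tal1* and 0.08 for *Gata2*.

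Of 16 tested genes of the midbrain GABAergic progenitors and precursors, 7 were called higher and 1 lower, where 6.49% and 7.27% of all genes tested were, and the median Log2FC was 0.16. *Sox1*, a SOX factor of neural progenitors, rose from 79.0 ± 1.22 to 86.8 ± 0.97 CPM (Log2FC 0.14), and *Dll1*, a Notch ligand, from 34.8 ± 1.18 to 39.0 ± 0.38 (Log2FC 0.16). *Lhx1*, a LIM factor of young neurons, was called by edgeR (Log2FC 0.21, adjusted p = 0.00759) but not by DESeq2 (adjusted p = 0.105). *Dll4*, a Notch ligand that vessel cells also express, fell by 0.36 on the log2 scale. The count of genes called higher was 4 by DESeq2, 3 without control F37 and 2 without stressed M29. Whether these genes differed in the midbrain or in other regions cannot be told from libraries that pool brain regions.

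The genes that make and carry GABA were read in the same way. Of 7 GABA synthesis and transport genes 0 were called higher by edgeR, with 0 of them at an unadjusted p under 0.05 and 0 by DESeq2, and 1 was called lower, the GABA transporter *Slc6a11* (Log2FC -0.21). The GABA-synthesizing enzymes *Gad1* and *Gad2*, of which *Tal2* and *Gata2* are upstream in the midbrain, had Log2FC values of -0.05 (SE 0.03) and 0.05 (SE 0.03). *Slc32a1*, the vesicular GABA transporter, had -0.05 (SE 0.03). These genes are also used by GABAergic neurons of all other brain regions.

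For the alternative fates, the median Log2FC of 13 glutamatergic genes of midbrain and thalamus was 0.10. Of these, 6 were called higher and 0 lower, where 6.49% and 7.27% of all genes tested were. They included *Neurog2* (Log2FC 0.24), a proneural factor, *Ebf2* (0.29), a factor of young neurons, and *Lhx9* (0.19), a LIM factor of the thalamus and tectum, and DESeq2 called 5. Of 8 serotonergic genes 0 were called higher and 1 lower, the serotonin transporter *Slc6a4* (Log2FC -0.49), which DESeq2 did not call (adjusted p = 0.240). Of 13 thalamus and pretectum genes, 3 were called higher, *Shox2* (0.21), *Lef1* (0.17) and *Olig3* (0.52), and 1 lower, *Bhlhe22* (-0.23). DESeq2 called 1 of these higher, as did edgeR without control F37 or without stressed F34. The libraries pool brain regions, so the region in which the genes of these lists differed cannot be told.

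Among the relatives of the selector genes, 3 of 7 tested were called higher and 0 lower, with a median Log2FC of 0.20. These counts and those of the partners below stand beside 6.49% higher and 7.27% lower of all genes tested. *Nhlh1* (Log2FC 0.39) and *Nhlh2* (0.21) are basic helix-loop-helix genes of young neurons close to *Tal1* and *Tal2*, and *Sox21* (0.20) is the relative of *Sox14*. *Gata1*, *Gata4*, *Gata5* and *Gata6* did not pass the filter, and *Gata4* and *Gata5* had no count in any brain. Of 21 genes for partners of the TAL and GATA factors, 3 were called higher and 1 lower, with a median of -0.01. *Tcf3* (0.13) and *Tcf12* (0.11) encode the E proteins that pair with TAL1 and TAL2 on E-boxes, *Id4* (0.09) encodes an inhibitor of E proteins, and *Ssbp2* (-0.11) encodes a cofactor of LDB1 in these complexes. The bridging factors *Lmo2* (Log2FC -0.03, SE 0.05) and *Lmo4* (-0.02, SE 0.03) were not called.

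**Figure D4:**
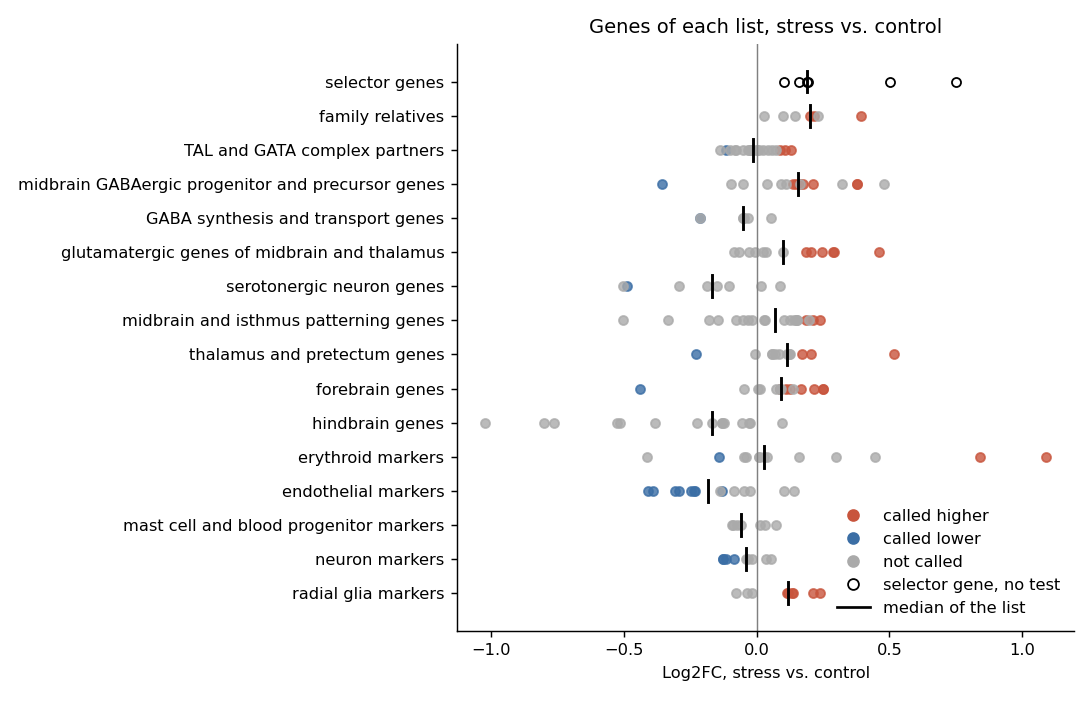
Log2FC of stress vs. control (horizontal axis) for the selector genes (open circles) and for the tested genes of 15 lists (1 point per gene). No call is marked for the selector genes. In the lists, red is called higher, blue called lower and gray not called, with a vertical mark at the median of each list. *Tal2*, the open circle farthest to the right at 0.75, lies to the right of every listed gene but 2 erythroid ones.

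Because *Tal1*, *Gata2* and *Gata3* are also expressed in other cells, markers of these cells were read in the same brains. Of all genes tested, 6.49% were called higher and 7.27% lower. The summed CPM of 14 endothelial markers ranged from 216 to 233 in controls and from 191 to 204 in stressed brains, and 0 of 14 were called higher and 8 lower, among them *Flt1* (Log2FC -0.41), *Kdr* (-0.29) and *Sox18* (-0.39). DESeq2 called 3 lower, and 4 were called lower without control F37 and 5 without control M31 or stressed F34. The part of these cells in the values of *Tal1* and *Gata2* was not tested. Erythroid markers summed to 369 to 417 CPM in controls and 376 to 391 in stressed brains, with 2 of 13 called higher, the embryonic globins *Hba-x* (1.09) and *Hbb-y* (0.84), and 1 lower, *Hbb-bs* (-0.14). Mast cell and blood progenitor markers summed to 121 to 124 and 122 to 125 CPM. Of the 7 tested, 0 were called in either direction by edgeR, 0 had an unadjusted p under 0.05, and the defining mast cell genes *Cpa3* and *Mcpt4* did not pass the filter.

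Some markers of maturation also differed between the groups. Of 9 radial glia markers, 6 were called higher and 0 lower, where 6.49% and 7.27% of all genes tested were. They included *Top2a* (Log2FC 0.24) and *Mki67* (0.21), both genes of dividing cells, and *Pax6* (0.14). *Fabp7* (-0.02), *Hes1* (-0.08) and *Slc1a3* (-0.04) were not called. Of 9 neuron markers, 0 were called higher and 4 lower, among them *Rbfox3* (-0.13), *Syt1* (-0.11) and *Stmn2* (-0.09). *Dcx* (0.06) and *Elavl4* (0.03) had positive values and were not called. The count of neuron markers called lower was 1 without stressed F34 and 2 without control F36, control M31 or either stressed male. The part of these changes in the values of *Tal2* and *Helt* was not tested.

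The brains also differed in how much caudal tissue their libraries show. The 17 hindbrain genes, mostly Hox genes, summed to 176, 99.7, 116 and 113 CPM in control F36, F37, M30 and M31, and to 64.9, 173, 62.9 and 109 CPM in stressed F34, F35, M28 and M29. The lowest sums, in stressed F34 and M28, thus sat in the same group as one of the highest, in F35. Of the 15 tested, 14 had a negative Log2FC and 1 a positive one. With the filter on low counts and all brains, none was called by edgeR or DESeq2, and 1 had an unadjusted p under 0.05. By edgeR, 6 were called lower without stressed F35, 1 without control F37 and 0 with any other brain left out. Without the filter, edgeR called 6 of 16 hindbrain genes lower, so the absence of calls depends on the processing. Forebrain genes summed to 1718 to 1760 CPM in controls and 1766 to 1856 in stressed brains. Of the 16 forebrain genes, 7 were called higher and 1 lower, where 6.49% and 7.27% of all genes tested were. The genes called higher included *Eomes* (Log2FC 0.25), *Emx2* (0.22) and *Emx1* (0.25). Without control M31 only 4 forebrain genes were called higher.

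Among stressed brains, *Tal2* was lowest in M28 (10.2 CPM), which had the lowest hindbrain sum, and highest in M29 (14.3 CPM), whose hindbrain sum lay between the others. In alternatives chosen after seeing the data, with the mean log2 CPM of the hindbrain genes as a covariate, the Log2FC of *Tal2* was 0.86 (SE 0.09). Without stressed F34 and M28, which are also the 2 stressed brains with the least *Tal2*, it was 0.88 (SE 0.08). The other 5 genes had Log2FC values from 0.09 for *Gata2* to 0.43 for *Helt* with the covariate, and from 0.09 to 0.45 without the 2 brains. *Tal2* was then the only one of the 6 past the threshold in either fit. These fits use the contrast that chose the genes, so nothing is read from which of the 6 were past the threshold. The part of the hindbrain content in the *Tal2* values was not tested. In the fit without these 2 brains, 3 forebrain genes, 5 midbrain and isthmus genes, 6 GABAergic progenitor and precursor genes and 1 thalamus and pretectum gene were called higher, and 5 endothelial markers and 1 neuron marker lower.

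**Figure D5:**
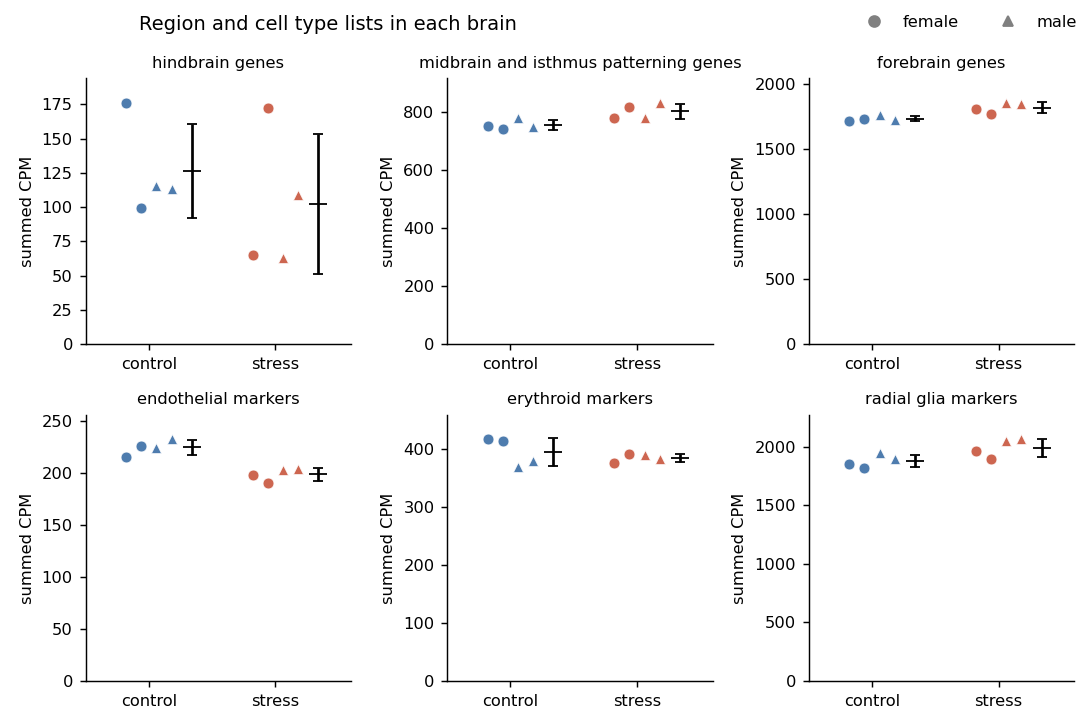
Summed CPM of 6 lists of region and cell type genes (vertical axes, each from 0) in every brain, with controls in blue, stressed brains in red, circles for females, triangles for males and black bars for the mean and SD of 4 brains. The hindbrain sum runs from 62.9 to 176 CPM with wide overlap, and the endothelial sum is lower in every stressed brain than in every control brain.

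To see which genes varied with *Tal2* apart from the condition, log2 CPM values were centred on the mean of each group, and Pearson's r with *Tal2* was taken over the 8 brains for 15248 other genes of a mean of at least 1 CPM. The highest values were for *Nucb2* (r = 0.97), which encodes the calcium-binding protein nucleobindin, *Rsl24d1* (0.96), a ribosome biogenesis gene, *Slc20a1* (0.96), a phosphate transporter, *Tbc1d15* (0.96), a Rab GTPase regulator, and *Gm15344* (0.95). With 8 brains of 2 litters and many genes, high values of r are frequent, with 35 genes at 0.9 or above, and 272 when sex was centred too. Of the selector genes, *Sox14* (0.47), *Gata2* (0.46) and *Gata3* (0.40) had positive values, *Helt* (0.05) was near 0, and *Tal1* (-0.42) was negative. The median r was 0.65 for the hindbrain genes and 0.31 for the midbrain and isthmus genes, beside 0.01 over all genes compared, and these genes share libraries and the portion of brain in them.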

How the data were processed

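RNA-seq of 8 E15.5 brains was used, 4 control and 4 stress, grouped by the sample labels. The authors deposited raw counts per gene, without normalization. They trimmed the reads, used TopHat2 2.1.1 to align them to mm10, and featureCounts 1.6.3 to count read pairs over GENCODE exons (versions from the submitters' processing notes), with no strand option stated. Library totals were 25320109 to 29105710 counts. Symbols were matched for 54723 of 54752 identifiers.

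Genes were filtered with filterByExpr (minimum count 10, by group), scaled by TMM, and the model of condition with sex as a covariate was tested with the quasi-likelihood test of edgeR 4.0.16 (R 4.3.3, limma 3.58.1). Adjusted p-values (Benjamini-Hochberg) cover all 17865 genes, and a gene was called under 0.05. The SE is the Log2FC divided by the square root of F. Log2 CPM used a prior count of 2. The procedure was tested on simulated data. The study's batch term was not used, since no batch is given for these libraries. Exon overlaps came from the exon coordinates of the count tables, and promoters from RefSeq (GRCm38.p6).

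Members and lists were chosen with earlier results of these data known. Beside the members, the text names up to 3 genes per list and direction with the smallest p, the 5 genes most like *Tal2* and tested neighbours on each side. Some genes that this rule names are not reported here. *Gad1*, *Gad2*, *Slc32a1*, *Lmo2*, *Lmo4*, *Fabp7*, *Hes1*, *Slc1a3*, *Dcx* and *Elavl4* fall outside this rule and were chosen after their values were seen. Alternatives were DESeq2 1.42.0, median-of-ratios and upper-quartile scaling, no filter, no sex covariate, each brain left out, and for likeness and levels another centring, prior count or scale. The setting with a hindbrain covariate and that without stressed F34 and M28 were added after the data were seen.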

Additional observations from a re-analysis of the deposited data

Results flagged for a closer look

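Of 42 groups of 4 brains checked for 1 value far from the rest, 2 stood out, both for *Tal1*, and chance alone flags about 1 in 20 such groups. Among controls, M30 had 30.91 CPM of *Tal1* while the other 3 lay between 27.85 and 28.32. Among stressed brains, M28 had 34.99 CPM while the other 3 lay between 31.06 and 31.43. M28 is also the stressed brain with the lowest *Tal2* (10.2 CPM) and the lowest hindbrain sum (62.9 CPM), and the part of the latter in its *Tal1* value was not tested.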

How the results depend on the processing

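The Log2FC of each of the 6 genes kept its sign and moved by less than the SD between replicates under every alternative run, including each sex alone. The count of the 6 genes past the threshold was less stable, at 5 in the fit described, 1 by DESeq2, 2 without the sex covariate, 1 to 5 with 1 brain left out, and 1 both with the hindbrain covariate and without stressed F34 and M28. Over all genes, 1160 were called higher, against 748 by DESeq2, 741 without stressed F34 and M28, and 736 to 1057 with 1 brain left out. The count called lower was 1298, against 854 to 1308 with 1 brain left out. The lowest of both counts, 736 and 854, came without stressed M29. Without the filter, 64 genes in place of 16 differed by sex and 37 in place of 1 had an interaction, which was called for 2 by DESeq2 and for 0 to 6 with 1 brain left out. The cause of these shifts was not tested. In CPM in place of RPKM, *Tal1* and *Gata3* precede *Sox14*, and *Gata2* precedes *Tal2*. With sex centred too, the r with *Tal2* moved to 0.64 for *Sox14* and to -0.59 for *Tal1*. No paired analysis was possible because the groups share no replicate numbers. Depth limits *Helt* most, at 34 to 61 counts per brain.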
